A study of Arabidopsis thaliana with 12 samples.

Results

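The genes carried by the chloroplast and by the mitochondrion of Arabidopsis thaliana were followed through 12 RNA sequencing libraries of seedlings. They are all rows of the deposited table whose identifier begins with ATCG, for the chloroplast (88 rows), or ATMG, for the mitochondrion (122 rows), which makes 210 of 27655 rows. The study asks what methylation of lysine 4 of histone H3 does in plants. Its 4 groups hold 3 libraries each. Col is the wild type. HTR5 stands for libraries labelled as the H3.3 knockout (h3.3ko) carrying the H3.3 gene HTR5, and K4A for the same knockout with an HTR5 whose lysine 4 is replaced by alanine, so both share the knockout by their labels. The last group is labelled sdg2, after a methyltransferase of this lysine.

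All seedlings were 3 weeks old and grew at 22 °C under 16 h of light and 8 h of dark. The labels give no allele, promoter or number of plants, and nothing says that libraries came from separate plants, so p-values measure the spread between these libraries, which may be technical. The SDG2 transcript stood at 139 to 174 TPM (transcripts per 1000000) in the libraries labelled sdg2 and at 18.3 to 30.7 TPM in the other 9, so the label is given as a label throughout. Of the H3.3 genes, HTR8 was at 243 ± 8.58 TPM (SD, n = 3) in Col, 6.49 ± 3.22 TPM in HTR5 and 4.80 ± 0.83 TPM in K4A. HTR4 was at 308 to 321 TPM in Col, 161 to 179 TPM in HTR5 and 71.9 to 86.0 TPM in K4A, so its transcript was present in both knockout groups and fell further in K4A (log2 change −1.12, SE 0.07, limma adjusted p 9.2e-10). Depth ran from 13734149 to 14544002 reads per library in Col and HTR5, and from 20727265 to 30368826 in K4A and the libraries labelled sdg2. For both mutant groups set against their controls, a batch with that split and the group therefore cannot be told apart, whereas the pair of controls and the pair of mutant groups each share a depth range.

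As background, the chloroplast genome encodes core subunits of the photosynthetic complexes, the large subunit of Rubisco, part of the plastid ribosome and the core of a bacterial-type RNA polymerase. That plastid-encoded polymerase needs nuclear sigma factors and transcribes most photosynthesis genes, whereas a phage-type polymerase made in the nucleus transcribes the rpoB operon and some other housekeeping genes. Mitochondrial genes for respiratory subunits, ribosomal proteins and cytochrome c maturation are transcribed by phage-type polymerases alone. Organelle transcripts mostly lack stable poly(A) tails. The sources used here name the library kit but state no step that selects or removes RNA, so the levels below are those of organelle RNA that entered these libraries.

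The reads behind each value were recovered from the TPM (see the processing notes), and with them the span in bases of each row. Names were given only where that span equalled the span of an organelle gene in the RefSeq annotation (TAIR10.1), since the identifiers themselves were paired with no symbol. Of the chloroplast rows, 70 matched, 60 of them to 1 symbol. The other 10 matched rows had spans shared by several genes, such as psbA and psbD. Of the mitochondrial rows, 16 were named, 5 of them within 2 bases. A match of length is not a match of sequence, and rows without one keep their identifier. In all, 73 chloroplast rows and 53 mitochondrial rows held 20 or more reads over the 12 libraries, while 5 and 38 were listed at 0 everywhere.

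Bacterial-type promoters of the plastid-encoded polymerase carry an upstream box and a second box nearer the start, and one such pair is shown for psbA, the gene of the D1 protein of photosystem II, because the highest chloroplast row has its span. The letters TTGACA, 15 to 19 bases and TANNNT were searched on both strands of the 250 bases before each of 83 annotated plastid protein genes. They occurred in 3 windows, or 3.61%, and 1 of these was that of psbA. The capitals mark both boxes in the reference sequence, Pltd:1530-1559 on the minus strand of TAIR10.1, which ends 86 bases before the annotated start.
psbA: TTGACAtggctatataagtcatgtTATACT
A match in letters is a description of the reference and not a measured site or a cause, and a window without it lacks only these letters.

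Chloroplast RNA was far lower in K4A and in the libraries labelled sdg2 than in their controls. Its share of all reads was 0.0667, 0.0459 and 0.0494% in Col and 0.0578, 0.116 and 0.0716% in HTR5. In K4A it was 0.0103, 0.00953 and 0.0108%, and in the libraries labelled sdg2 it was 0.0104, 0.0083 and 0.0104%. Every library of the last 2 groups lay below every library of the first 2. HTR5 replicate 2 stood apart with the highest share, and it stood apart over the whole table as well. The chi-square per degree of freedom of its reads was 19.4 against HTR5 replicate 1 and 15.9 against HTR5 replicate 3. Those replicates gave 2.25 against each other, and pairs within the other groups gave 1.83 to 6.09. It enters every comparison with HTR5 and the common estimate of spread. The summed chloroplast TPM was 2782 ± 1328 (SD, n = 3) in HTR5 and 396 ± 42.9 in K4A, a log2 ratio of −2.81, and −2.35 without HTR5 replicate 2. It was 1768 ± 296 in Col and 363 ± 63.4 in the libraries labelled sdg2, a log2 ratio of −2.28. In whole seedlings, fewer chloroplasts or green cells, less RNA per chloroplast and a smaller part of that RNA entering the libraries cannot be told apart.

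**Figure D1:**
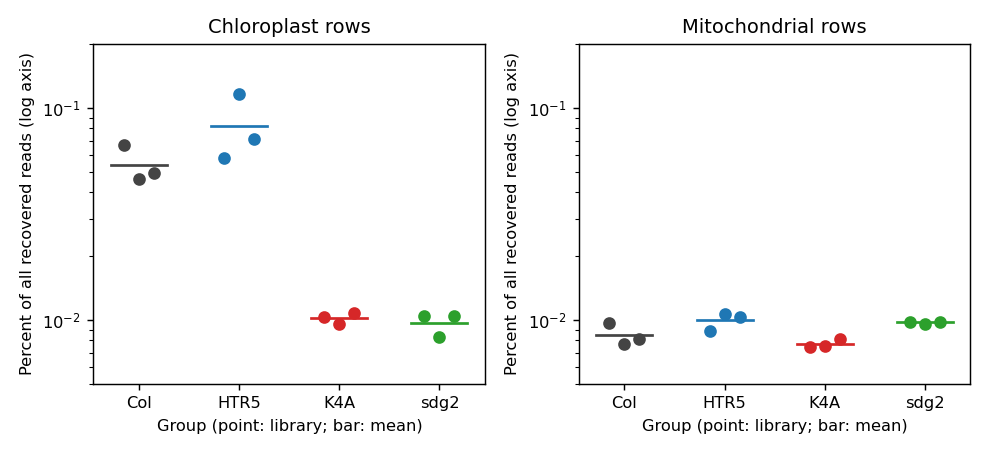
Percent of all recovered reads that fell on chloroplast rows (left) and mitochondrial rows (right), on log axes, in each of the 12 libraries, with a bar for the mean of each group. Chloroplast shares of K4A and the libraries labelled sdg2 sit at 0.0083 to 0.0108%, below all libraries of Col and HTR5, while mitochondrial shares of all groups lie between 0.00749 and 0.0107%.

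The mitochondrial share did not part the groups in that way. It was 0.0077 to 0.00969% in Col and 0.00888 to 0.0107% in HTR5. The K4A libraries held 0.00749 to 0.00815% and those labelled sdg2 0.00957 to 0.00982%. Marker genes of green tissue and of roots were read beside these shares. The summed level of 2 green tissue markers (CAB1 and LHCB2.1) was 25609 to 27169 TPM in Col, 16600 to 28272 TPM in HTR5, 16437 to 17271 TPM in K4A and 13728 to 14930 TPM in the libraries labelled sdg2. HTR5 replicate 2, which had the highest chloroplast share, had the lowest green marker level of the controls, within the range of K4A. The summed level of 2 root markers (PIP2-2 and RCI3) was 216 to 227.2 TPM in Col, 158.4 to 204.5 TPM in HTR5, 33.58 to 35.43 TPM in K4A and 35.49 to 38.97 TPM in the libraries labelled sdg2. The root ranges of the controls lay above those of both mutant groups. Of these 4 markers, 3 fell in K4A and 4 in the libraries labelled sdg2, each against its control. Every library held both kinds, as its seedling label says. The part of tissue makeup in the organelle results was not tested. With reads thinned to equal depth, the log2 ratio of the chloroplast sums was −2.84 for K4A and −2.29 for the libraries labelled sdg2, against −2.81 and −2.28 at full depth.

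Each row was tested with limma on log2(TPM + 1) over 20881 genes, and called at a Benjamini-Hochberg adjusted p under 0.05. Of the 72 chloroplast rows that passed the filter on low values, 68 fell in K4A against HTR5 and 0 rose, where 26.1% of all genes tested fell and 42.5% rose. In sdg2 against Col 64 fell and 0 rose, where 20.7% of all genes fell and 52.4% rose. The median log2 change of these rows was −2.03 and −1.58, against 0.14 and 0.31 over all genes tested. Because a low row could pass the filter through the controls alone, all 83 chloroplast rows with any read were also tested: 67 fell in K4A and 59 in the libraries labelled sdg2, and 0 rose in either. In that unfiltered fit the median log2 change of all genes was 0.068 and 0.181. The shares of all genes given above belong to the filtered fit.

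By summed TPM the size of the fall differed between the complexes, and Rubisco, with 1 row, had the largest. Other complexes change places by measure. In K4A the ratio of sums was 0.088 for photosystem I and 0.184 for the NDH complex, but medians over rows were 7.36% and 6.66% of HTR5. Single rows of photosystem I fell about as far as Rubisco: log2 ratios of means were −4.88 and −4.00 for psaB and −4.76 and −4.08 for psaA. The Rubisco large-subunit gene rbcL (ATCG00490, Pltd 54958 to 56397), whose product carries the active site of carbon fixation, was at −4.62 and −4.16. Its level was 112, 72.8 and 71.0 TPM in Col, 88.0, 180 and 108 TPM in HTR5, 5.53, 4.88 and 4.88 TPM in K4A and 4.26, 5.44 and 4.57 TPM in the libraries labelled sdg2. Each library of the last 2 groups held 59 to 79 rbcL reads, where the shallower controls held 646 to 1541. It fell by 4.31 (SE 0.21) on the log2 scale in K4A, with a limma adjusted p of 5.3e-11, and by 3.88 (SE 0.21) in the libraries labelled sdg2, with 1.8e-10. The nuclear genes of the small subunit fell less on that scale: RBCS1A by 0.99 and 1.45, RBCS1B by 1.95 and 2.26, RBCS2B by 1.54 and 1.32, and RBCS3B by 1.18 and 1.25, all 4 called in both comparisons. Whether rbcL and the small subunits differ in their fall was not tested.

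Photosystem I, which passes electrons to ferredoxin, had 4 rows and all 4 fell in both comparisons. Its reaction-centre genes psaA and psaB lie side by side. The level of psaB was 36.0, 21.8 and 24.2 TPM in Col and 29.5, 57.0 and 44.2 TPM in HTR5. It was 1.63, 1.25 and 1.54 TPM in K4A and 1.96, 1.62 and 1.57 TPM in the libraries labelled sdg2. The mean in K4A was thus 3.38% of that in HTR5, and the ranges were far apart. psaJ, which codes for a small subunit, was the highest row of the complex, with means of 112 ± 15.2 TPM in Col, 189 ± 148 TPM in HTR5, 20.9 ± 5.77 TPM in K4A and 29.2 ± 6.04 TPM in the libraries labelled sdg2.

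Photosystem II, which splits water, had 14 rows, of which 14 fell in K4A and 13 in the libraries labelled sdg2. The highest chloroplast row, ATCG00020, has a span of 1062 bases, which both psbA and psbD (the genes of the D1 and D2 reaction-centre proteins) share. It was at 339, 215 and 247 TPM in Col and at 308, 745 and 340 TPM in HTR5. In K4A it was at 25.2, 13.8 and 18.6 TPM, and in the libraries labelled sdg2 at 23.1, 24.4 and 21.5 TPM. The means were 24.2-fold lower in K4A and 11.6-fold lower in the libraries labelled sdg2, with adjusted p-values of 6.6e-10 and 1.3e-08 (limma). ATCG00270, of the same span, was 14.1-fold and 9.83-fold lower. psbC, a core antenna gene, had means of 77.5 ± 23.8 TPM in HTR5 and 3.11 ± 0.49 TPM in K4A. psbZ, which codes for a small subunit, was among the 2 largest falls in sdg2 against Col: it had 31 to 39 reads in each Col library and 5, 0 and 1 reads in the libraries labelled sdg2. psbM, of another small subunit, was 4.87-fold lower in K4A and 2.7-fold lower in the libraries labelled sdg2. psbL, also a small subunit, had 6 to 8 reads in each Col library and 0 in each library labelled sdg2, too few to rank it.

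The cytochrome b6f complex, which links the photosystems, had 5 rows and all 5 fell in both comparisons. Its summed TPM went from 154 ± 95 in HTR5 to 14.9 ± 3.85 in K4A, and from 76.8 ± 34.5 in Col to 14.0 ± 4.70 in the libraries labelled sdg2. Without HTR5 replicate 2 the log2 ratio of K4A to HTR5 changed from −3.37 to −2.73. petN, which codes for a small subunit, was its highest row, at 14.1 to 57.4 TPM in Col, 34.7 to 139 TPM in HTR5, 3.64 to 5.04 TPM in K4A and 3.72 to 5.53 TPM in the libraries labelled sdg2. The NDH complex, which carries cyclic electron flow around photosystem I, had 8 rows, of which 8 fell in K4A and 7 in the libraries labelled sdg2. Its members spread widely: the mean in K4A was 34.7% of that in HTR5 for ndhJ, the highest of them, and 5.09% for ndhF.

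The ATP synthase was the photosynthetic complex with the smallest fall in K4A. All 5 of its rows fell in both comparisons, but its summed TPM was 2.92-fold lower in K4A than in HTR5 and 3.1-fold lower in the libraries labelled sdg2 than in Col. Its share of all chloroplast TPM was 6.2 to 7.16% in Col and 4.8 to 7.0% in HTR5, but 12.5 to 15.3% in K4A and 9.53 to 11.4% in the libraries labelled sdg2. atpB, the catalytic beta subunit, was its highest row at 49.6, 46.2 and 42.3 TPM in Col, 52.5, 73.7 and 56.0 TPM in HTR5, 21.7, 22.0 and 25.5 TPM in K4A and 18.8, 17.9 and 20.3 TPM in the libraries labelled sdg2. It fell by 1.35 (SE 0.11) and 1.23 (SE 0.11) on the log2 scale, where rbcL, which starts at 54958 against the end of atpB at 54156, fell by the 4.31 and 3.88 given above. Whether these falls differ was not tested.

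**Figure D2:**
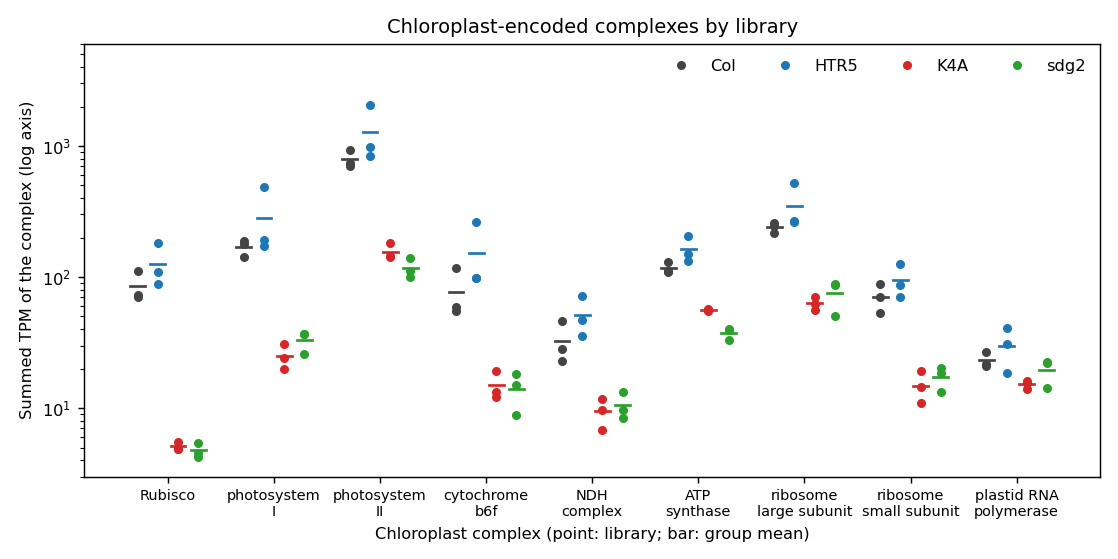
Summed TPM of the chloroplast rows of each complex on a log axis, 1 point a library and a bar for the group mean, with the groups in the order Col, HTR5, K4A and sdg2. The gap between controls and mutants is widest for Rubisco (85.2 and 126 TPM against 5.09 and 4.76 TPM) and narrowest for the plastid RNA polymerase (23.1 and 29.9 TPM against 15.2 and 19.6 TPM).

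The plastid RNA polymerase genes stood at the other end. Their summed TPM was 23.1 ± 3.06 in Col and 29.9 ± 11.3 in HTR5, with 15.2 ± 1.05 for K4A and 19.6 ± 4.66 for the libraries labelled sdg2. The log2 ratio was −0.98 in K4A, and −0.69 without HTR5 replicate 2, and it was −0.24 in sdg2 against Col, where the libraries overlapped. Of the 4 genes, 3 fell in K4A and 0 in the libraries labelled sdg2, and 0 rose. With median-of-ratios scaling, quantile normalization or limma-voom, 4 fell in K4A and 3 in the libraries labelled sdg2. As a share of all chloroplast TPM they took 0.948 to 1.43% in Col and HTR5 and 3.14 to 5.73% in K4A and the libraries labelled sdg2. rpoB, the beta subunit, was at 11.6, 9.48 and 10.3 TPM in Col, at 9.7, 17.1 and 12.5 TPM in HTR5, at 8.37, 8.12 and 7.29 TPM in K4A and at 12.5, 9.04 and 13.1 TPM in the libraries labelled sdg2. In sdg2 against Col it changed by 0.12 (SE 0.17) on the log2 scale, with an adjusted p of 0.53 (limma), and it was called in 0 of 22 alternative fits.

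The ribosomal protein genes were split. All 8 tested rows of the small subunit fell in both comparisons, and of 7 rows of the large subunit 5 fell in K4A and 6 in the libraries labelled sdg2. rpl32 was their highest row, at 156 to 197 TPM in Col, 205 to 422 TPM in HTR5, 30.2 to 37.8 TPM in K4A and 27.6 to 60.4 TPM in the libraries labelled sdg2. On the log2(TPM + 1) scale rps14 had the largest fall of the tested rows in K4A, by 4.59 (SE 0.37, adjusted p 2.2e-08 in limma). It held 75, 100 and 92 reads in HTR5 and 9, 0 and 2 in K4A. By the ratio of group means ndhG and psbL, with 2 and 1 reads in all of K4A, lay lower. rps14 starts at 36938 on the plastid genome, next to psaB at 37375. At the other end rpl22 was at 5.21 to 7.53 TPM in Col, 2.49 to 7.1 TPM in HTR5, 2.94 to 5.87 TPM in K4A and 3.47 to 4.98 TPM in the libraries labelled sdg2, and was called in neither comparison. Among other genes, cemA, which codes for an envelope protein, was 5.24-fold lower in K4A and 5.07-fold lower in the libraries labelled sdg2. The row with the highest mean among those without a name, ATCG01050, fell by 2.13 and 1.67 on the log2 scale.

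Some neighbours along the plastid genome had similar ratios and others did not. In K4A against HTR5 atpA was at −0.57 beside atpF at −2.23. psbL, with few reads, was at −5.84 and psbE, the next named gene, at −2.35. Between these lies psbF, which had no row named for it alone. From psbC to psaA, 5 consecutive named genes (psbC, psbZ, rps14, psaB and psaA) had log2 ratios of group mean TPM between −4.64 and −5.14 in K4A against HTR5. From rpoA to rpl22, 7 consecutive named genes lay between −0.35 and −2.19. In the same order, petD, the gene before rpoA, was at −4.09. These runs were picked out after the values were seen and are not tested. Genes transcribed together share RNA molecules, and such neighbours are not independent.

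**Figure D3:**
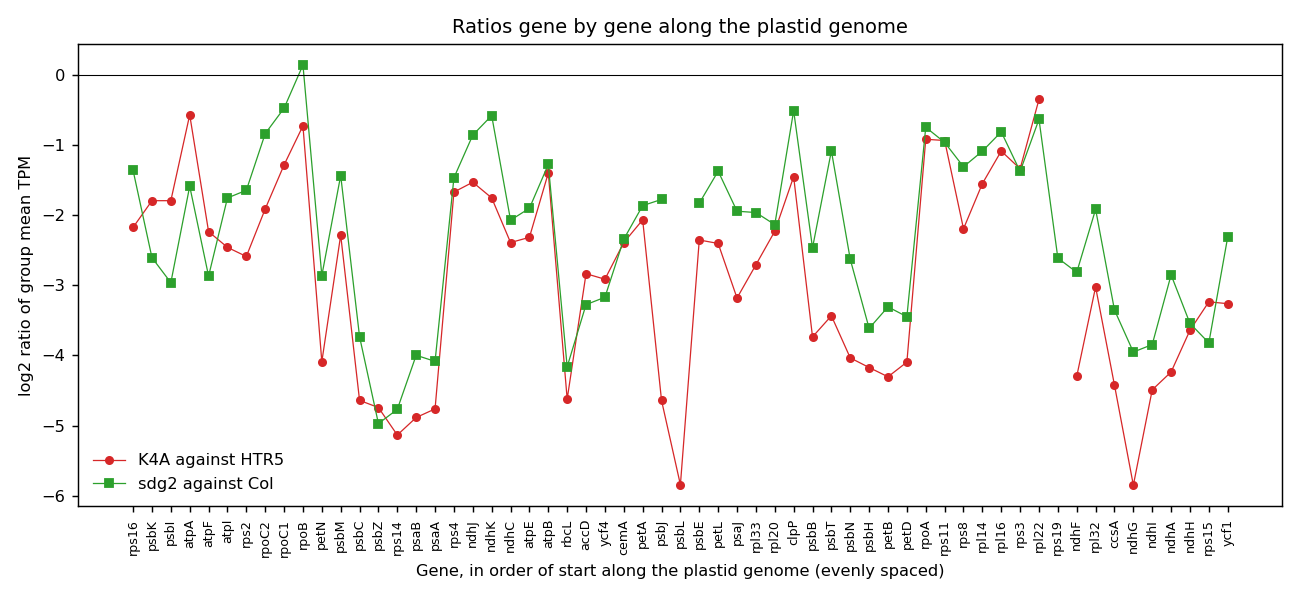
Log2 ratio of group mean TPM for 59 chloroplast rows with 1 symbol and 20 or more reads, evenly spaced in order of their start on the plastid genome, for K4A against HTR5 (circles) and sdg2 against Col (squares). A gap marks a gene listed at 0 in the lower group. Ratios run from −0.35 (rpl22) to −5.85 (ndhG) for K4A and from 0.14 (rpoB) to −4.97 (psbZ) for sdg2.

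K4A and the libraries labelled sdg2 share a depth range but not a background. By the labels only K4A carries the H3.3 knockout and the added HTR5 gene. The mean of HTR8 was 4.80 TPM in K4A and 192 TPM in the libraries labelled sdg2. In every difference between K4A and sdg2, here and below, that background and the altered lysine or methyltransferase therefore cannot be told apart. The chloroplast shares of reads of these groups overlapped. Of the 72 tested chloroplast rows, 5 were higher and 2 lower in K4A, where 20.4% and 29.8% of all genes tested were, so both shares were below those of all genes. The highest of these contrasts formed a run: psbK (Pltd 7017 to 7202), psbI (7583 to 7693), atpA (9938 to 11461) and atpF (11529 to 12798) are consecutive named genes, and all 4 were higher in K4A in 22 of 22 alternative fits. The next gene named by 1 symbol, atpI, was not called. Between atpF and atpI lies atpH, whose span psaC shares. ATCG00140 and ATCG01060, the rows of that span, were not called either, with log2 differences of 0.17 and 0.27.

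psbK and psbI encode small subunits of photosystem II. psbK was at 32.8, 33.9 and 41.4 TPM in K4A and at 15.2, 12.1 and 15 TPM in the libraries labelled sdg2, against 78.3 to 89.6 TPM in Col and 92.8 to 180 TPM in HTR5. psbI was at 38.3, 44.0 and 63.3 TPM in K4A and at 15.7, 11.8 and 27.1 TPM in the libraries labelled sdg2. Both fell in each mutant group against its control, and both were higher in K4A without overlap. Whether the falls against the controls differ was not tested. Their log2 difference between these groups was 1.29 (SE 0.18) and 1.42 (SE 0.31), with adjusted p-values of 2.6e-05 and 0.0014 (limma).

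atpA and atpF encode the alpha subunit and a stalk subunit of the ATP synthase. atpA was at 21.3, 18.4 and 15.4 TPM in Col, 19.4, 33.6 and 25.1 TPM in HTR5, 17.9, 17.3 and 17.6 TPM in K4A and 6.75, 4.99 and 6.59 TPM in the libraries labelled sdg2. The K4A libraries lay within the range of Col. The libraries labelled sdg2 lay below all others, 2.88-fold under K4A (log2 difference 1.39, SE 0.16, adjusted p 4.3e-06 in limma). Against HTR5 atpA fell by 0.51 (SE 0.16) in K4A, with an adjusted p of 0.013, and that call was lost without HTR5 replicate 2. atpF was at 4.12 to 5.0 TPM in K4A and 1.78 to 2.09 TPM in the libraries labelled sdg2, with an adjusted p of 0.00093.

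rpoB and psbT were the 2 chloroplast rows lower in K4A than in the libraries labelled sdg2. rpoB differed by −0.48 (SE 0.17, adjusted p 0.029), a call kept in 17 of 22 alternatives, and psbT, of a small photosystem II subunit, by −1.12 (SE 0.4, adjusted p 0.028, limma), kept in 15. psbT rests on few reads, 4, 4 and 2 in K4A and 6, 8 and 11 in the libraries labelled sdg2. The fifth row higher in K4A was ATCG01310, with the span of rpl2. In the reference that gene lies in the inverted repeat, so all of its 50-base stretches occur again elsewhere. ATCG01310 held 57 to 125 reads per library while ATCG00830, of the same span, held 0 to 4, so the value of that pair depends on how shared reads were assigned, which the sources used here do not give.

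**Figure D4:**
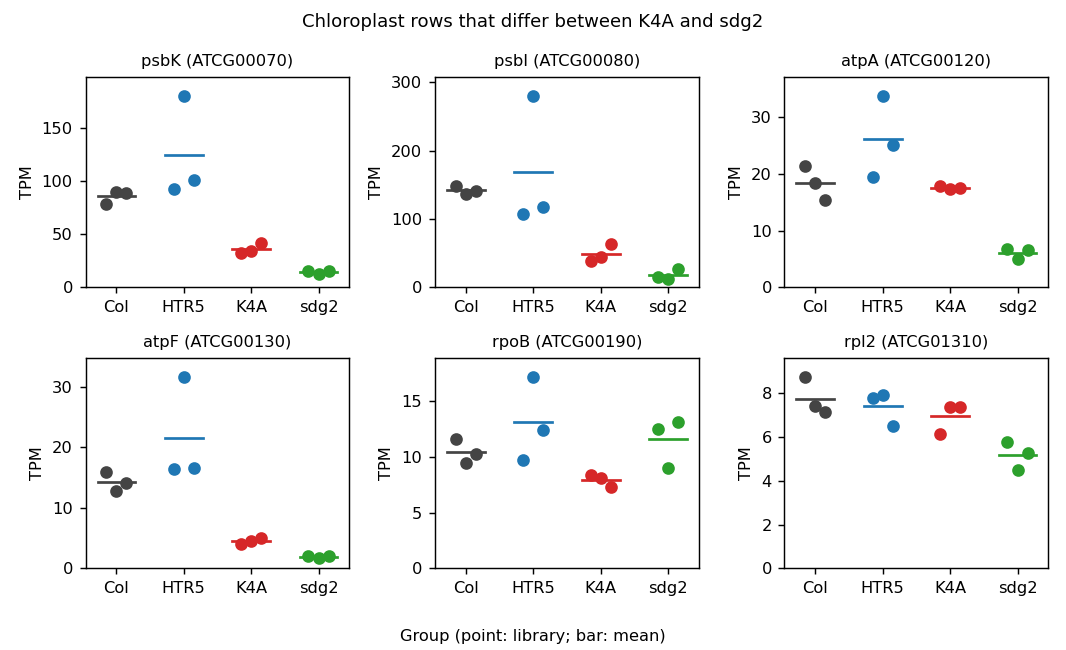
TPM of 6 chloroplast rows in each library, with a bar for the group mean; axes start at 0. psbK, psbI, atpA and atpF are higher in the 3 K4A libraries than in the 3 libraries labelled sdg2 without overlap, rpoB is lower, and the row of rpl2 span is higher.

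HTR5 against Col, the comparison of the controls, gave 5 chloroplast rows that rose and 0 that fell among 72, where 5.5% and 3.78% of all genes tested did, a share that rose near that of all genes. They were atpB, psbN, petB, ndhF and ATCG01060, whose span atpH and psaC share. ATCG01060 was at 7.64, 3.2 and 3.21 TPM in Col and at 16.5, 20.6 and 15.8 TPM in HTR5, a log2 rise of 1.79 (SE 0.33, adjusted p 0.0028 in limma), called in 21 of 22 alternatives. psbN, a gene on the opposite strand to its neighbours psbT and psbH, was at 2.38 to 11.9 TPM in Col and 10.6 to 24.3 TPM in HTR5, where libraries overlapped. The summed TPM was 1.57-fold higher in HTR5, with overlap. Both the count and the sum depended on single libraries. Without HTR5 replicate 2, 1 row was called and the log2 ratio of the sums went from 0.65 to 0.19. Without HTR5 replicate 1 the count was 23, without Col replicate 1 it was 11, and without Col replicate 2 or 3 it was 1. It was 3 without K4A replicate 1 or 2 or without sdg2 replicate 3, which alter only the common estimate of spread.

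Nuclear genes for organelle gene expression were read beside these rows. They include genes for the plastid and genes for the mitochondrion. All 3 phage-type RNA polymerases rose in both mutant groups against their controls (median log2 change 0.62 and 1.11, against 0.14 and 0.31 over all genes tested), also under the 3 other scalings. RPOTp, which serves the plastid, was at 15.4 to 16.5 TPM in Col, 17.4 to 20.3 TPM in HTR5, 27.8 to 30.0 TPM in K4A and 43.5 to 50.5 TPM in the libraries labelled sdg2. None of the 4 ranges overlapped. It was lower in K4A than in the libraries labelled sdg2 by 0.67 (SE 0.08, adjusted p 6.5e-06, limma) on the log2 scale.

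Of 6 sigma factors, which steer the plastid polymerase to its promoters, 1 rose and 1 fell in K4A, and 1 rose and 2 fell in the libraries labelled sdg2. Over all genes, 42.5% rose and 26.1% fell in K4A and 52.4% rose and 20.7% fell in the libraries labelled sdg2. The sigma factor counts depend on scaling: with median-of-ratios scaling 1 rose and 4 fell in K4A, and 0 rose and 6 fell in the libraries labelled sdg2. That scaling also moved the median log2 change of all genes, by −0.14 and −0.305. The shares of all genes given here were taken without it, so they are no measure for the rescaled counts. SIG5, a stress- and light-responsive factor, was at 71.8 to 75.9 TPM in Col, 72.0 to 96.4 TPM in HTR5, 69.5 to 71.0 TPM in K4A and 25.5 to 27.7 TPM in the libraries labelled sdg2. It was thus lower in the libraries labelled sdg2 than in K4A by the log2 difference of 1.36 (SE 0.09, adjusted p 5.5e-09, limma). Of 12 proteins bound to the polymerase, 4 rose and 4 fell in K4A, and 8 rose and 1 fell in the libraries labelled sdg2. The shares that rose were below and somewhat above those of all genes just given. Their median log2 change was 0.02 and 0.3, against 0.14 and 0.31 over all genes, and with median-of-ratios scaling 3 rose and 5 fell in K4A and 5 rose and 3 fell in the libraries labelled sdg2. The thioredoxin-like TRXz was at 25.8 to 30.7 TPM in Col, 23.8 to 31.3 TPM in HTR5, 5.1 to 7.7 TPM in K4A and 23.4 to 30.1 TPM in the libraries labelled sdg2, so that K4A alone lay apart.

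Of 9 genes of organelle RNA processing and decay, 4 rose and 4 fell in K4A, and 5 rose and 2 fell in the libraries labelled sdg2, with medians of 0.07 and 0.24. The shares that rose were near the 42.5% and 52.4% of all genes. The share that fell in K4A was above the 26.1% of all genes, and that in the libraries labelled sdg2 was near their 20.7%. This list pools genes of both organelles. In K4A chloroplast PNPase, RNase E, CSP41A and CSP41B fell. Mitochondrial PNPase, RNase J, AHG2 and AGS1 rose there. In the libraries labelled sdg2 CSP41A and CSP41B fell, and chloroplast PNPase rose with the 4 that rose in K4A. RNase J, which trims plastid transcripts, was at 8.55 to 11.1 TPM in HTR5 and rose to 20.1 to 22.8 TPM in K4A. From 7.79 to 9.94 TPM in Col it rose to 34.6 to 37.8 TPM in the libraries labelled sdg2. CSP41B, which binds plastid RNA, fell by 0.74 (SE 0.06) and 1.15 (SE 0.06) on the log2 scale. Against K4A, 0 sigma factors were higher in the libraries labelled sdg2 and 3 were lower, while 8 of the 12 polymerase-bound proteins were higher and 0 lower, where 29.8% of all genes were higher there and 20.4% lower. Median-of-ratios scaling gave 5 sigma factors lower and 7 of these proteins higher. It also moved the median log2 change of all genes in K4A against sdg2 by 0.0798, and the shares just given were taken without it. Any link from these transcripts to the chloroplast rows was not tested.

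Mitochondrial rows behaved otherwise. Of 41 tested, 7 rose and 2 fell in K4A against HTR5, both shares below those of all genes given above. In sdg2 against Col 20 rose, a share near that of all genes, and 2 fell, a share below it. The median log2 change was 0.03 and 0.5, against 0.14 and 0.31 over all genes. The split in K4A depends on scaling: with median-of-ratios scaling 2 rose and 4 fell, with limma-voom 3 rose and 5 fell, and with reads thinned to equal depth 4 rose and 6 fell. For the libraries labelled sdg2 limma-voom gave 11 that rose and 2 that fell. Median-of-ratios scaling moved the median log2 change of all genes by −0.14 for K4A and by −0.305 for the libraries labelled sdg2. The shares of all genes were taken without these scalings or thinning, so they are no measure for the altered counts.

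Among the respiratory genes that could be named, cox2 (ATMG00160), a core subunit of cytochrome c oxidase, rose in both comparisons in 22 of 22 alternatives. It was at 7.44, 8.13 and 8.33 TPM in Col, 7.41, 6.26 and 7.48 TPM in HTR5, 11.5, 12 and 13.6 TPM in K4A and 13, 15.4 and 14.2 TPM in the libraries labelled sdg2. The mutant groups did not overlap with the controls. The log2 rise was 0.73 (SE 0.11, adjusted p 2.2e-05) and 0.76 (SE 0.11, adjusted p 1.3e-05, limma). cox1, of the same complex, was called in neither comparison, with log2 changes of −0.24 and 0.22.

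ccmB, needed for the maturation of cytochrome c, was at 7.57, 3.04 and 6.88 TPM in Col, 8.46, 13.0 and 9.04 TPM in HTR5, 10.5, 11.6 and 9.13 TPM in K4A and 14.4, 14.3 and 13.1 TPM in the libraries labelled sdg2. It rose in sdg2 against Col by 1.21 (SE 0.22, adjusted p 0.00018, limma) and, with a call kept in 5 of 22 alternatives, in HTR5 against Col. The complex I gene nad4L was at 5.57 to 12.5 TPM over all libraries, the ATP synthase gene atp4 at 3.53 to 7.28 TPM and the ribosomal protein gene rps3 at 7.45 to 12.1 TPM, and these 3 were called in no comparison. Of 4 tested complex I rows, 1 rose in sdg2 against Col, nad4, and that call was kept in 4 of 22 alternatives.

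Rows without a name made up 72.8 to 82.7% of the mitochondrial TPM in every library. ATMG00030, of 324 bases, was the highest of them, and followed the chloroplast rows. It was at 174, 100 and 100 TPM in Col, 116, 189 and 167 TPM in HTR5, 19.5, 17.6 and 24.8 TPM in K4A and 23.3, 28.6 and 23.4 TPM in the libraries labelled sdg2. It fell by 2.86 (SE 0.2) and by 2.22 (SE 0.2) on the log2 scale, with adjusted p-values of 4.8e-09 and 9.0e-08 (limma). The other mitochondrial row that fell in both comparisons, ATMG00060, fell by 0.68 and 0.77. Without ATMG00030 the log2 ratio of summed mitochondrial TPM changed from −0.55 to 0.13 in K4A against HTR5, and from 0.39 to 1.07 in sdg2 against Col. The sequence of ATMG00030 was not searched for copies in the chloroplast genome. Whether reads of plastid RNA were assigned to this row was therefore not tested.

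The largest rises in sdg2 against Col were those of ATMG01200 (885 bases) and ATMG00690 (723 bases). ATMG00690 was at 3.47, 4.78 and 2.63 TPM in Col and 15.3, 12 and 15.1 TPM in the libraries labelled sdg2, with 5.73 to 7.37 TPM in K4A. ATMG01200 was at 0.531 to 0.888 TPM in Col and 4.03 to 5.24 TPM in the libraries labelled sdg2. ATMG00660 was at 7.31 to 10.9 TPM in Col, 4.87 to 10.7 TPM in HTR5, 11.1 to 16.2 TPM in K4A and 23.8 to 30.4 TPM in the libraries labelled sdg2. In K4A the largest rise was that of ATMG00630, from 1.41 to 2.7 TPM in HTR5 to 4.59 to 8.51 TPM.

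K4A against sdg2 gave 0 mitochondrial rows higher and 10 lower, where 29.8% of all genes were lower and 20.4% higher. The largest differences were those of ATMG00670, at 4.61, 3.65 and 3.83 TPM in K4A and 11.2, 11.9 and 11.6 TPM in the libraries labelled sdg2, and of ATMG01200. In HTR5 against Col 2 rows of 41 rose, ccmB and ATMG01370, and 0 fell, a share that rose near the 5.5% of all genes. ATMG01370 was at 22.6 to 23.9 TPM in Col, and at 35.7 to 48.7 TPM in HTR5, 35.7 to 43.5 TPM in K4A and 32.2 to 53.5 TPM in the libraries labelled sdg2. Its level in Col was below that of all other libraries, in a rise of 0.79 (SE 0.15, adjusted p 0.0031, limma) called in 22 of 22 alternatives. ATMG00665 has a recovered span of 22 bases, so its 28.6 ± 7.08 TPM in Col stand for only 3 to 5 reads a library.

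**Figure D5:**
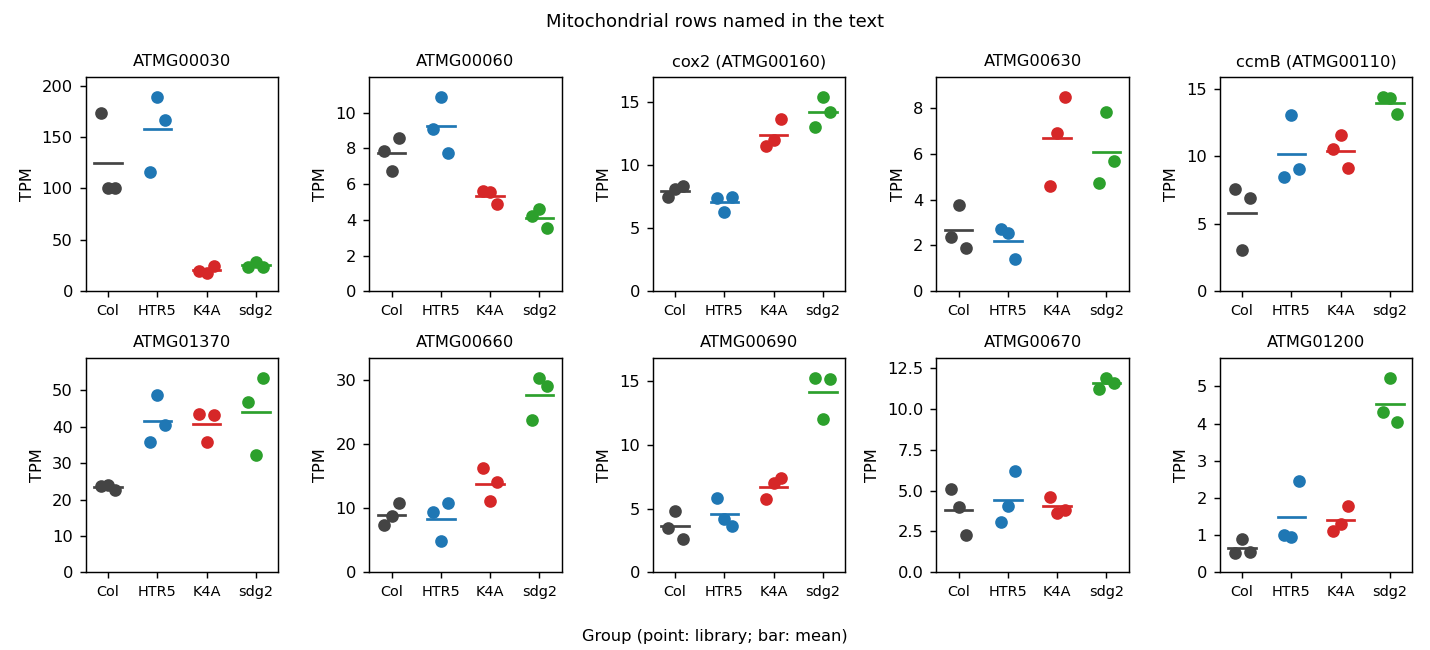
TPM of 10 mitochondrial rows in each library, with a bar for the group mean; axes start at 0. ATMG00030 and ATMG00060 are lower in K4A and the libraries labelled sdg2 than in both controls, cox2 and ATMG00630 are higher in both, and ATMG00660, ATMG00690, ATMG00670 and ATMG01200 are highest in the libraries labelled sdg2.

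Sequence copies limit what the mitochondrial rows can show. Chromosome 2 of the reference holds a long copy of mitochondrial DNA. Of 33 annotated mitochondrial protein genes 24 have over 90% of their 50-base stretches repeated elsewhere. In the chloroplast 11 of 84 do, but through copies within the organelle genomes. At most 23.9% of the stretches of these chloroplast genes occur in nuclear sequence. Parts of some chloroplast genes outside the inverted repeat also occur elsewhere in the organelle genomes, such as 14.45% of the stretches of rbcL and 7.70% of those of psbA. These values do not separate plastid from mitochondrial copies, and whether plastid reads were assigned to mitochondrial rows was not tested. Named mitochondrial genes without repeated stretches (nad9, ccmB, cox1, nad4L and atp4) held 250 to 920 reads in all, while rps12, rps4 and atp8, fully repeated, held 24 to 28. Repeated genes could hold reads all the same: nad4, at 94.8% repeated, held 980. Of 62 nuclear rows in that stretch of the chromosome, 54 have over 90% of their 50-base stretches in mitochondrial sequence. Those 54 together held 129 to 163 reads in each Col library and 193 to 211 in each HTR5 library. At the higher depth they held 217 to 345 in K4A and 388 to 598 in the libraries labelled sdg2. The part of depth in these counts, and any link from them to the mitochondrial rises in the libraries labelled sdg2, was not tested. Whether reads of shared sequence were dropped, split or assigned at random is not given in the sources used here, nor is the use of strand.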

How the data were processed

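RNA-seq of 12 seedling libraries was used as deposited. The authors deposited 1 TPM table, whose columns sum to 1000000. The submitters' processing notes name fastp 0.20.1, HISAT2 2.1.10, DESeq2 1.26.0 and the TAIR10 build, with no role; the counting tool is not given in the sources used here. Groups and replicate numbers came from sample titles.

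TPM times the gene span gave whole reads, within 0.01, for 100% of 277046 non-zero values; in 25493 of 25498 genes with an annotated span the length was that span, introns included. Organelle rows were named by span where they held 20 or more reads and had reads in 3 or more libraries. Genes reaching 1 TPM in 3 or more libraries were tested with limma 3.58.1 in R 4.3.3 on log2(TPM + 1), which understates changes of low rows, all 12 libraries in 1 fit, and the fit was tested on simulated data. As the unit is TPM, no count model was the main test. Named rows are the 8 highest of each genome, the highest of each complex, the 2 largest called rises and falls per comparison with 20 or more reads in the higher group, and rows with copies; others named were chosen after their values were seen. Members and lists were chosen with earlier results of these data known. Alternatives were pseudocounts of 0.1 and 0.5, other filters and scalings, limma-voom, thinning to 13734149 reads, the compared groups alone, a replicate block and each library left out.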

Additional observations from a re-analysis of the deposited data

How the results depend on the processing

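Across 22 alternative fits the chloroplast counts of K4A and the libraries labelled sdg2 against their controls (66 to 70 and 57 to 68 with a library left out) stayed within 1.5 times the values reported, as did their 46 and 44 calls among 50 rows at a mean TPM of 5. With that filter the median log2 change of all genes was 0.159 and 0.342. The chloroplast count in HTR5 against Col moved most: 0 with a pseudocount of 0.1, 2 with no filter, 3 after thinning, 1 with the compared groups alone and 1 to 23 with a library left out. In K4A against sdg2 the chloroplast count was 4 to 12 with a library left out, with 12 lacking HTR5 replicate 2 and 4 lacking K4A replicate 2.

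The mitochondrial count in K4A against HTR5 was 5 at a mean TPM of 5 and 6 to 11 with a library left out. In sdg2 against Col it was 9 at a mean TPM of 5, 13 with limma-voom and 18 to 24 with a library left out. In K4A against sdg2 it was 4 at a mean TPM of 5, 16 with the compared groups alone and 7 to 13 with a library left out. In HTR5 against Col it was 1 with a pseudocount of 0.1, no filter, median-of-ratios scaling, quantile normalization, limma-voom, thinning, the compared groups alone or the replicate block, and 1 to 4 with a library left out.

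The log2 ratio of summed mitochondrial TPM in K4A against HTR5 reversed to 0.13 without the highest row and was −0.14 as a median over rows. In sdg2 against Col it was 0.049 with median-of-ratios scaling, 0.92 as a median over rows and 1.07 without the highest row. In K4A against sdg2 it was −0.33 as a share of reads. The cause of these shifts was not tested, beyond the weight of the left-out row itself. The replicate numbers did not pair the libraries (18 correlations of −0.14 to 0.07), and with the replicate block the chloroplast counts were 68, 65, 4 and 8 and the mitochondrial counts 9, 22, 1 and 10 (K4A against HTR5, then sdg2 against Col, the controls, and K4A against sdg2). Few reads limit the mitochondrial rows, as 69 of 122 hold under 20 in all 12 libraries together.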
